A study of Mus musculus with 2 samples.

Results

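Cytokine genes encode the secreted or membrane-bound signals by which lymphocytes act on each other, and 10 of them were examined here for accessible chromatin in splenic B cells, namely Ltb, Lta, Tnf, Il12a, Ifng, Il2, Il4, Il5, Il6 and Il10. They were chosen by name, with earlier results of these data known. A peak of the DNaseI library was counted for a gene when it overlapped the gene body or the 20 kb on either side, and within the Tnf, Lta and Ltb cluster each peak was given to the member with the nearest transcription start site (TSS). By this rule 29 of the 47542 peaks in the list belonged to these 10 genes, out of 22367 protein-coding genes annotated.

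The cells came from the spleen of C57/Bl6 mice, 8 weeks old, of genotype Trp53+/+ and labelled mock, and were enriched on magnetic beads for B220, a surface form of CD45 that marks B cells. DNase I cuts DNA that is not protected by nucleosomes, so that regions rich in short fragments are taken as DNase I hypersensitive sites (DHS). The series has 1 DNaseI library and 1 input library of the same kind of cells, with no replicate and no other condition. The study examined such sorted cells by flow cytometry and for their cell cycle phase. Those data are not used here, and the peak list itself measures neither purity nor resting state. Only the peak list of the DNaseI library was analysed here, and all values below describe that library without a test. The list gives no read counts, so the depth is unknown and the lack of a DHS means only that no peak was called.

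Most cytokine genes are known to be silent in resting lymphocytes and to be switched on by antigen, microbial products or other cytokines. Accessible promoters and distant elements of these loci are therefore often particular to the cell type that makes the cytokine. Lymphotoxin beta, the product of Ltb, is an exception in B cells, which carry it on the surface and use it with lymphotoxin alpha to organise follicles. Activated B cells are also known sources of TNF, IL-6 and IL-10, whereas IL-2, IL-4, IL-5 and interferon gamma are best known from T cells and innate lymphocytes.

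The promoters at both ends of this range are shown first, since they carry the contrast between start sites inside a DHS (Ltb, Tnf) and start sites far from any (Il2, Il6). Each line gives 200 bases on mm9 (NCBI build 37), read 5′ to 3′ in the direction of the gene. For Ltb, Tnf and Il2 they end at the base before the 5′-most TSS of GENCODE M1. For Il6 they end 47 bp further upstream, where RefSeq (GRCm38.p6) starts the gene. Capitals mark matches, on either strand, to the words named further below.
Ltb promoter, plus strand, chr17:35331184-35331383: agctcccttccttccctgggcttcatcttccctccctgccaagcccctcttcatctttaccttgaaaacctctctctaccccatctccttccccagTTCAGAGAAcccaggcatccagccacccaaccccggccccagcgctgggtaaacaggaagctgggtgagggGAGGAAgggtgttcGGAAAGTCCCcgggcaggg
Tnf promoter, minus strand, chr17:35338953-35339152: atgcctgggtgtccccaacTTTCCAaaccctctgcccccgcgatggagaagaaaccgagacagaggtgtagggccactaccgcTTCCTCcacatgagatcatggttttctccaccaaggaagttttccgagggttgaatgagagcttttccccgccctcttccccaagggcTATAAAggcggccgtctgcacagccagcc
Il2 promoter, minus strand, chr3:37024882-37025081: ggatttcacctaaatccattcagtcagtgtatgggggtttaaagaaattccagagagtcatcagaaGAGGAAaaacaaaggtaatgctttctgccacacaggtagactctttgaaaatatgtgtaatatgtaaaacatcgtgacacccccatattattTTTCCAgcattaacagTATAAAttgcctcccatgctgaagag
Il6 promoter, plus strand, chr5:30339454-30339653: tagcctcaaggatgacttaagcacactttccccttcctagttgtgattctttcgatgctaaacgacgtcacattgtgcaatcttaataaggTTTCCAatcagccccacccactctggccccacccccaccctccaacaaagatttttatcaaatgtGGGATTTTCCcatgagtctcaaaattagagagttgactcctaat

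A DHS was found in the window of 8 of the 10 genes, where 70.8% of all protein-coding genes had one. Of the 10, 6 had a promoter DHS, in the span from 5 kb upstream to 2 kb downstream of an annotated TSS, against 57.0% of all protein-coding genes. All 6 also had a DHS within 1 kb of a TSS, against 53.6% of all genes. A DHS covered a TSS itself in 4 members, Ltb, Lta, Tnf and Il12a, and in 46.6% of all genes. A DHS touched the gene body of 6 members and of 57.9% of all genes. Each of these shares lay near its background, with 10 genes to measure it on.

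All 10 members had a CpG-poor promoter, meaning that the 1000 bp around the TSS fell short of 55% GC or of an observed to expected CpG ratio of 0.6. Such promoters were less often accessible in the list. Among 13756 CpG-poor promoters, 39.1% had a promoter DHS and 29.4% had a DHS over a TSS, which are the shares to set beside 6 of 10 and 4 of 10. GC content around the TSS ran from 43.0% at Il2 to 59.0% at Ltb.

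The 29 DHS had scores from 9.85 to 228.33, which rank peaks by strength on a scale that the sources leave open. Their median of 50.04 compares with 32.65 over the whole list, and 17 of the 29 were at or above that value. The order-statistic 95% interval of the median, 20.45 to 77.55, covers sampling of these 29 peaks only and treats them as independent. Without the 13 DHS of the Tnf, Lta and Ltb cluster, many of which the 3 genes share, the median was 30.9 and lay below that of the list. The median width of all 29 was 979 bp, against 760 bp. By place, 7 overlapped a gene body, 13 lay upstream and 9 downstream. The nearest protein-coding TSS was that of the member itself for 18 DHS and that of another gene for 11, so that not every DHS in a window can be read as belonging to the cytokine gene.

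**Figure D1:**
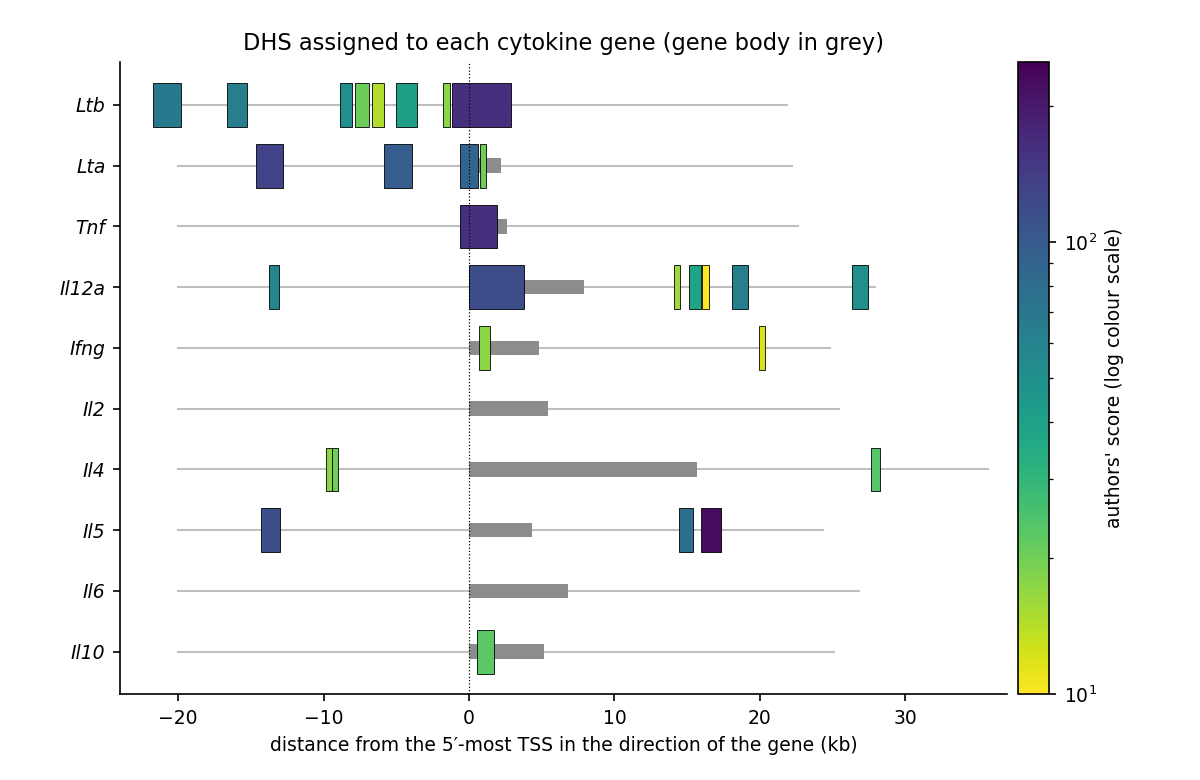
Position of the 29 DHS relative to the 5′-most annotated TSS of each gene, in kb in the direction of transcription, with the gene body in grey, the window of 20 kb on either side as a thin line and the colour giving the authors' score on a log scale. Ltb, Lta, Tnf and Il12a have a DHS over the TSS, Ifng and Il10 have one inside the gene, Il4 and Il5 have DHS only outside the gene, and Il2 and Il6 have none.

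The TNF family members Ltb, Tnf and Lta lie within 10.9 kb on chromosome 17 and had 13 DHS in their joined windows. TNF is an inflammatory cytokine, and lymphotoxin alpha acts alone as a soluble factor or with lymphotoxin beta at the cell surface. Because the genes are so close, 10 of these DHS lay in the windows of all 3 genes, and the division by nearest TSS gave 8 to Ltb, 4 to Lta and 1 to Tnf. The members of the cluster therefore share most of their surroundings and are not separate observations.

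At Ltb (ENSMUSG00000024399.5, chr17:35331384-35333265, plus strand) 1 DHS covered the whole gene, from 35330184 to 35334264. It was 4081 bp wide, at percentile 99.7 of all widths, and it scored 160.29, which is percentile 94.0 of all scores. A small DHS with a score of 17.52 lay next to it, centred 1.55 kb upstream of the TSS. The other 6 DHS given to Ltb were centred 4.28 to 20.7 kb upstream and scored 14.54 to 67.9. For these 6 the nearest TSS was not that of Ltb but that of Lst1 in 4 cases and Aif1 in 2, which are genes expressed in myeloid cells. The start sites of Lst1 and Aif1 were themselves covered, by DHS with scores of 14.54 and 67.9.

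At Tnf (ENSMUSG00000024401.8, chr17:35336326-35338952, minus strand) 1 DHS ran from 35337047 to 35339549, over the TSS and from exon 1 into exon 4 of its longer transcript. Its score of 159.66 was at percentile 93.9, close to that of the Ltb DHS, and its width of 2503 bp at percentile 97.5. At Lta (ENSMUSG00000024402.5, chr17:35340110-35342296, minus strand) the DHS over the TSS had a score of 89.78, at percentile 81.6, and was centred 14 bp from the TSS. A second, narrow DHS of 411 bp with a score of 20.3 was centred in exon 3.

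Upstream of Lta 2 intergenic DHS scored higher than the one at its own start. They were centred 4.88 kb and 13.7 kb from the TSS and scored 98.33 and 132.72. The farther one, from 35355074 to 35356925, was nearest to the TSS of Gm16181, an annotated gene that overlaps Nfkbil1. The 13 DHS of the cluster had a median score of 63.0, and the 16 DHS of the other members one of 30.9.

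**Figure D2:**
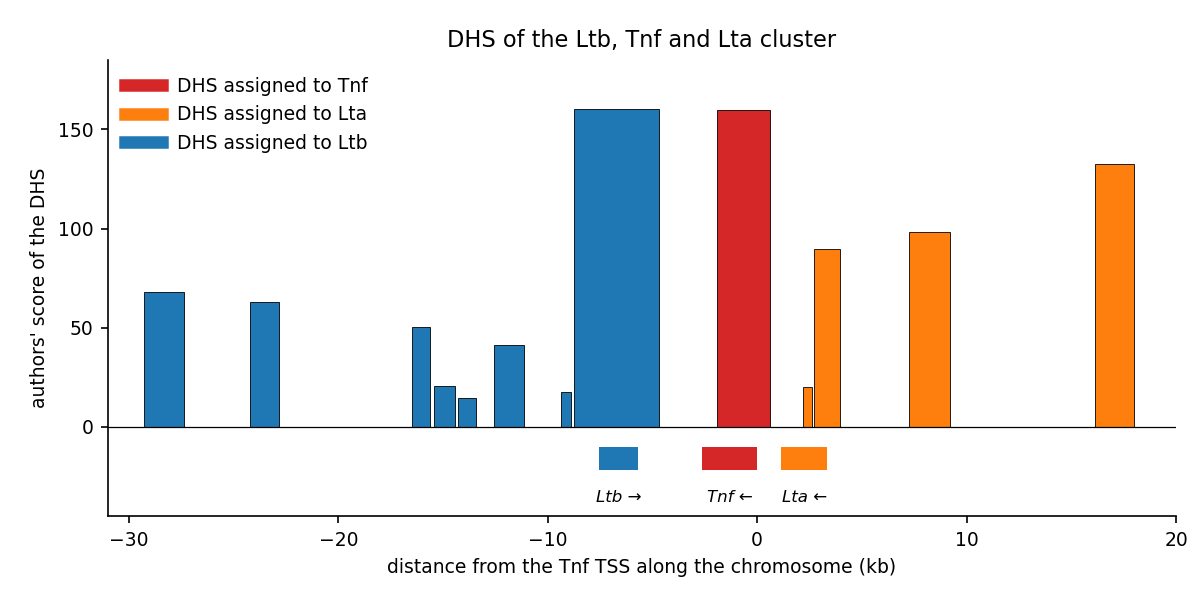
Score of each of the 13 DHS of the cluster, drawn as a bar over its span, against the distance from the Tnf TSS along chromosome 17 in kb, with the 3 genes and their direction below. The widest DHS covers Ltb with a score of 160.29, the next highest covers the start of Tnf with 159.66, and 3 DHS of Lta score between 89.78 and 132.72.

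Il12a encodes the p35 chain that pairs with p40 to form IL-12, a signal that promotes interferon gamma production. The gene (ENSMUSG00000027776.6, chr3:68494566-68502469, plus strand) had 7 DHS, the most of any member outside the cluster, and 84.5% of protein-coding genes had fewer. No other protein-coding TSS was nearer to any of these 7 than that of Il12a. The DHS over the TSS began 34 bp upstream of it and extended to 68498316, which lies past exon 4 of 8 in the longer transcript. It was 3785 bp wide, at percentile 99.6, and scored 117.97, at percentile 88.3. The remaining 6 were intergenic. The upstream DHS, centred 13.4 kb from the TSS, scored 57.87, and the 5 downstream DHS scored between 9.85 and 62.89. Il12a thus resembled Tnf and Ltb in having a wide DHS that took in the start site and reached into the gene, which at Ltb was covered whole.

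Ifng encodes interferon gamma, which activates macrophages and directs switching to IgG2 isotypes in B cells. The gene (ENSMUSG00000055170.3, chr10:117878103-117882948, plus strand) had 2 DHS, both weak. The first, from 117878780 to 117879558, was centred in intron 1 and began 677 bp from the TSS, with a score of 17.48, well under the median. It was low in GC, at 37.6%, and only 0.857% of all DHS were lower. The other was centred 20.1 kb downstream of the TSS and scored 12.16.

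Il10 encodes an inhibitory cytokine that regulatory B cells are known to make. The gene (ENSMUSG00000016529.5, chr1:132916422-132921551, plus strand) had a single DHS, centred in exon 2, from 132916977 to 132918160. Its score of 22.73 was at percentile 35.5 although its width of 1184 bp was at percentile 73.5. The TSS lay outside it by 555 bp. Ifng and Il10 were therefore alike in that a weak DHS lay just inside the gene and none over the TSS. Both lost their promoter DHS when only peaks at or above the median score were kept, which left 4 of 10 members with one. The same filter left a promoter DHS at 50.2% of all protein-coding genes and at 32.0% of those with a CpG-poor promoter. In the whole windows it left 5 of 10 members with a DHS, against 63.9% of all genes.

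IL-4 and IL-5 are type 2 cytokines, known to act on B cells by promoting IgE switching and the growth of B-1 cells. At neither gene did a DHS touch the gene itself. The Il4 gene (ENSMUSG00000000869.6, chr11:53416484-53432171, minus strand) had 3 DHS in its window with scores of 17.64, 20.45 and 23.74, all below the median of the list. Of these, 2 formed a close pair centred 9.21 and 9.63 kb upstream, between Il4 and Il13, and were nearer to the Il13 TSS. They were 357 and 359 bp wide, among the narrowest in the list at percentiles 8.66 and 9.21. The third was centred in an exon of Kif3a, a kinesin gene downstream of Il4.

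The window of Il5 (ENSMUSG00000036117.2, chr11:53534296-53538608, plus strand) held 3 DHS of quite another strength. One covered the TSS of Rad50, a DNA repair gene, and scored 115.88. The other two lay downstream of Il5, from 53548751 to 53549701 with a score of 77.55 and from 53550223 to 53551610 with a score of 228.33. The latter was the highest of the 29, at percentile 97.7 of the list and rank 1116 from the top. Its centre was 16.6 kb from the Il5 TSS, which was the nearest protein-coding TSS. The strongest DHS counted for any of these cytokines was therefore intergenic and 11.6 kb beyond the end of a gene that no DHS touched.

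IL-2 is the growth factor of activated T cells, and IL-6 promotes the formation of plasma cells. Both Il2 (ENSMUSG00000027720.6, chr3:37019445-37024881, minus strand) and Il6 (ENSMUSG00000025746.7, chr5:30339701-30346508, plus strand) had 0 DHS in their windows. Both windows are fully sequenced in this build, with 0% unknown bases. The distance from the TSS to the nearest DHS was 25.3 kb for Il2 and 60.0 kb for Il6, and 69.6% and 76.7% of protein-coding genes had a DHS nearer to a TSS. For comparison the distance was 9.04 kb for Il4, 13006 bp for Il5, 0.677 kb for Ifng and 0.555 kb for Il10.

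**Figure D3:**
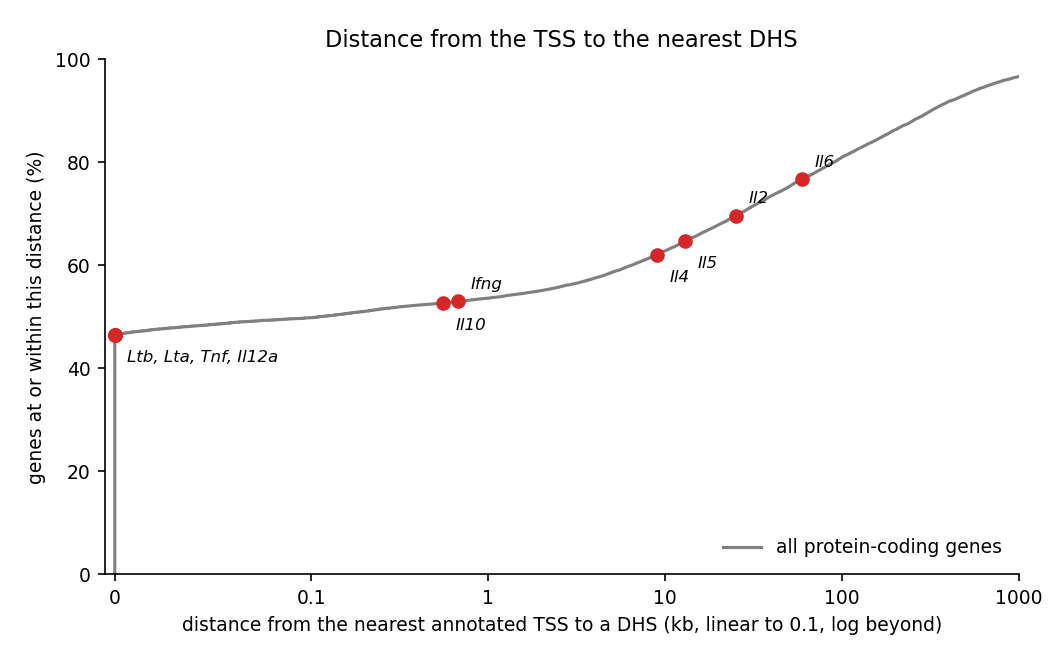
Cumulative share of protein-coding genes, in percent, by the distance from any annotated TSS to the nearest DHS in kb (linear to 0.1 kb, log scale beyond), with the 10 cytokine genes as points on the curve. Ltb, Lta, Tnf and Il12a sit at 0, Il10 and Ifng below 1 kb, and Il4, Il5, Il2 and Il6 between 9.04 and 60.0 kb.

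The limit of 20 kb left out DHS that lay just beyond it. At Ifng the next DHS were 21.2 kb upstream, with a score of 38.49, and 20.7 kb downstream of the gene, with a score of 18.04. Between 20 and 50 kb from the gene body Ifng had 11 further DHS, 2 upstream and 9 downstream, which scored 9.36 to 43.86 and all had Ifng as the nearest TSS. The count for Ifng thus rose from 2 to 13 with the wider flank. Il2 gained 2 DHS, which lay next to each other upstream of the gene at 25.6 and 26.7 kb from the TSS and scored 9.07 and 68.69. Il10 gained 5 and Il12a gained 4. Il5 gained 5, all nearest to Irf1, with scores up to 408.63. Il6 was the one member with no DHS at 50 kb either. The share of all protein-coding genes with a DHS at this flank was not computed, so these counts are a description only.

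Scores and widths were set side by side. The 4 DHS over a member's TSS were 1206 to 4081 bp wide and scored 89.78 to 160.29. All 6 DHS counted for Il4, Ifng and Il10 scored under the median of the list, from 12.16 to 23.74, although the DHS of Il10 was wider than most. The 3 DHS of Il5, 951 to 1388 bp wide, each had a higher percentile by score (77.7 to 97.7) than by width (61.8 to 81.3).

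**Figure D4:**
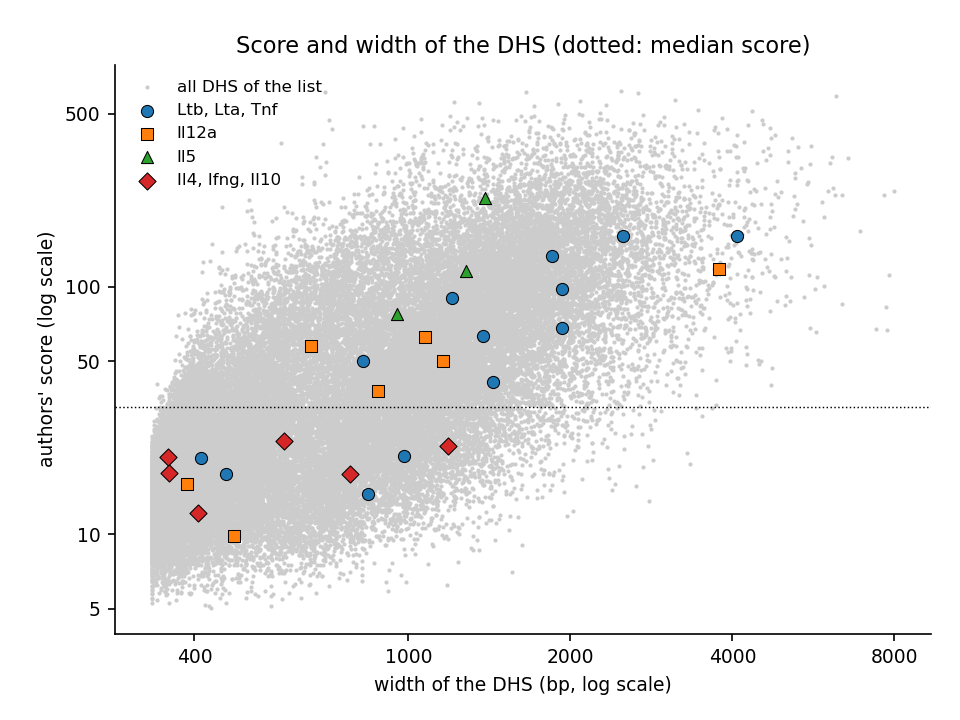
The authors' score against the width in bp, both on log scales, for all 47542 DHS (grey) and for the 29 DHS of the cytokine genes by gene group, with the median score of 32.65 as a dotted line. All 6 DHS of Il4, Ifng and Il10 lie below the line, all 3 of Il5 lie above it, and Ltb and Il12a reach widths of 4081 and 3785 bp.

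The letters under the DHS were searched for 12 short words that stand for known binding preferences, in the central 300 bp of each peak and on both strands. Centres of the strongest intergenic DHS (Il5), of the DHS inside Ifng and of the stronger DHS of the pair between Il4 and Il13 are shown on the plus strand of mm9, with the matches in capitals. None of the 3 stretches overlaps an annotated exon.
Il5 downstream DHS, chr11:53550767-53551066: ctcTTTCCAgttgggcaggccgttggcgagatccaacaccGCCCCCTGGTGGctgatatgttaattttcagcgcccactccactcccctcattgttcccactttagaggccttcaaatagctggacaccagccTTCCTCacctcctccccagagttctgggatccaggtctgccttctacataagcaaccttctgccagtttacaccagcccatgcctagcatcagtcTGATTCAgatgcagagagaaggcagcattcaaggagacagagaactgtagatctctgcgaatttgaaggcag
Ifng intron 1 DHS, chr10:117879020-117879319: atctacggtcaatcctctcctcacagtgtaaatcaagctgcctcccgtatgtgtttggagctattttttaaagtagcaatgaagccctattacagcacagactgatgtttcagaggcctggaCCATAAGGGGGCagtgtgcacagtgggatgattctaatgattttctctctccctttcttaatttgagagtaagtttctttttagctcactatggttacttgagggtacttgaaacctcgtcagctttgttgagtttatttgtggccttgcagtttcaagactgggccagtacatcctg
Il4 upstream DHS, chr11:53441237-53441536: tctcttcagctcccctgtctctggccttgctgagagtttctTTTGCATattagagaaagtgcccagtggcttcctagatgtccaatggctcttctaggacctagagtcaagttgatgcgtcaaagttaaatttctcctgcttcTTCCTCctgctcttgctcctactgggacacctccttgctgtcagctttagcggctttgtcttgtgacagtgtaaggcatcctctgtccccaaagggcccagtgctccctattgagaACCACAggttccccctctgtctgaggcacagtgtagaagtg

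The CTCF word, part of the motif of an insulator protein, stood at position 41 of the Il5 centre and at position 123 of the Ifng centre, counted from the first base shown. It was found in 3 of the 29 centres and in 5.14% of the centres of 47473 DHS on chromosomes 1 to 19, X and Y. The other match was in a DHS upstream of Ltb, centred 4.28 kb from the TSS. The word GAGGAA, the core bound by PU.1, a factor of B and myeloid cells, was present in 14 of the 29 (48.3%) and in 29.5% of all. These 14 included the DHS over the start sites of Lta, Tnf and Il12a, the strongest DHS of Il5 and the upstream DHS of Il4 shown above. The Il5 centre also held TGGAAA (NFAT, a factor activated by calcium; 4 of 29, 22.5% of all) and TGANTCA (AP-1; 2 of 29, 7.62% of all). The Il4 centre held TGTGGT (RUNX; 4 of 29, 20.6% of all) and the octamer core ATGCAAA (2 of 29, 4.92% of all).

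Of the remaining words, that of STAT factors, TTCNNNGAA, was in 3 of the 29 centres and in 8.32% of all. AGATAA, a word for factors of the erythroid and T cell lineages, was in 3 of the 29 and in 11.2% of all. The NF-kappaB and IRF words were each in 1 of the 29, against 4.65% and 3.96% of all. The CRE word, TGACGNCA, was in 0 of the 29 and in 1.69% of all. TATAAA, the word of the TATA box, was in 6 of the 29 and in 11.2% of all. Of these 6 only the DHS over the Lta TSS covered a start site, and the others lay downstream of Il12a or upstream of Ltb. Words may overlap each other, and a match describes the letters and not a bound factor.

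The promoters differed in words irrespective of a DHS. In the 300 bases from 250 upstream to 50 downstream of the 5′-most TSS, TATAAA was found at 5 of the 10 members and at 13.4% of all protein-coding promoters. At Tnf, Ifng, Il2 and Il10 it began 26 to 31 bp upstream of the TSS, and at Lta 167 bp upstream. NF-kappaB words were found at Ltb and Il6 (2 of 10, 4.77% of all promoters), beginning 19 and 91 bp upstream of the TSS in GENCODE M1. NFAT words were found at Tnf, Il2, Il4, Il5 and Il6 (5 of 10, 20.7% of all). The promoters of Il2 and Il6, which had no DHS, thus carried TATA, NFAT or NF-kappaB words as those of Tnf and Ltb did. Of the other words, that of PU.1 was at 5 of the 10 (28.1% of all), STAT at 3 (7.94%), the octamer at 2 (4.4%) and IRF at 1 (3.78%). The RUNX, AGATAA, AP-1, CTCF and CRE words were at 0 of the 10, against 15.3%, 10.3%, 6.93%, 3.96% and 3.87% of all. These shares over all promoters include CpG-rich ones, and shares over CpG-poor promoters alone were not computed. The 200 bases upstream of Il12a, which were inside no DHS except for the last 34, held none of the 12 words.

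Receptor genes for these cytokines were examined beside them, since B cells respond to many of them. Accessible promoters were found at 14 of 18 receptor chains, or 77.8% (exact 95% interval 52.4 to 93.6%). The 10 ligand genes gave 60.0% (26.2 to 87.8%) and all protein-coding genes 57.0%. Of the 18 receptor promoters 14 were CpG-poor, and 10 of these had a promoter DHS, against 39.1% of all CpG-poor promoters. All 4 that were CpG-rich had one. The intervals cover counting error only and overlap widely. They treat the chosen genes as independent draws, which Ltb, Lta and Tnf are not. The 4 chains without one were Il2rb, Il6st, Ltbr and Il13ra1. For IL-2 and IL-6, whose genes had no DHS, 3 of the 5 receptor chains had a promoter DHS, namely Il2ra (65.14), Il2rg (85.06) and Il6ra (95.6). At the other two, Il2rb and Il6st, the nearest DHS was 17.6 and 9.99 kb from a TSS. Likewise Il4ra scored 93.42, while Il4 had no promoter DHS. For IL-5, whose gene had none either, Il5ra scored 62.14 and Csf2rb, the other chain, 16.29. No DHS lay within 1 kb of a TSS of Il5ra, the nearest being at 1.18 kb. Both chains of the interferon gamma receptor, Ifngr1 and Ifngr2, scored 142.83 and 141.54 at their promoters, against 17.48 at Ifng. The IL-10 receptor chains Il10ra and Il10rb scored 136.97 and 303.75, against 22.73 at Il10. The order was the other way round at Il12a, with 117.97 against 72.48 at Il12rb1, where the nearest DHS was 1.26 kb from a TSS, and 12.69 at Il12rb2. Tnf, with 159.66, scored above Tnfrsf1a (14.3) and close to Tnfrsf1b (164.47). Ltb scored 160.29, and Ltbr, the receptor that stromal cells use to sense lymphotoxin, had 0 DHS in its window, with the nearest 34.2 kb from its TSS.

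In a list of 42 further cytokine genes, 20 (47.6%, 32.0 to 63.6%) were accessible at the promoter and 22 were not. CpG-poor promoters made up 39 of the 42, and 17 of these had a DHS, against 39.1% of all CpG-poor promoters. The highest promoter scores were at Tgfb1 (199.17), Il23a (164.84), Il16 (97.05), Csf1 (68.73) and Tnfsf10 (61.82). The DHS scored for Il23a lay 4.39 kb from the nearest TSS and was not within 1 kb of one. The median of the top promoter scores was 42.9 over these 20 genes and 108 over the 6 members with a promoter DHS, of which 3 are the neighbouring genes of the cluster.

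The markers of the cell types that the preparation could hold gave the following values. All 10 B cell markers had a promoter DHS, with a median top score of 127. Of 10 T cell markers, Lck (92.81) and Cd5 (97.67) had one, and the other 8, among them Cd3d, Cd3e and Cd3g, had none. Of 10 myeloid markers 5 had one and Lyz2, Csf1r, Mpo, S100a8 and S100a9 did not, with a median top score of 42.5. Of 5 NK cell markers 2 had one, with a median top score of 21.0, and Ncr1, Klra8 and Gzma did not. Of 5 erythroid markers 1 had one, and Alas2, Epor, Hbb-b1 and Slc4a1 did not. Top promoter scores ran from 18.16 to 142.32 over the 5 myeloid markers and from 16.07 to 25.96 over the 2 NK cell markers that had one. The highest was at Cd68, where the nearest DHS was 2.68 kb from a TSS. A DHS covered a TSS at 1 of the 10 myeloid markers. Whether other cell types had a part in the DHS of the cytokine genes was not tested.

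**Figure D5:**
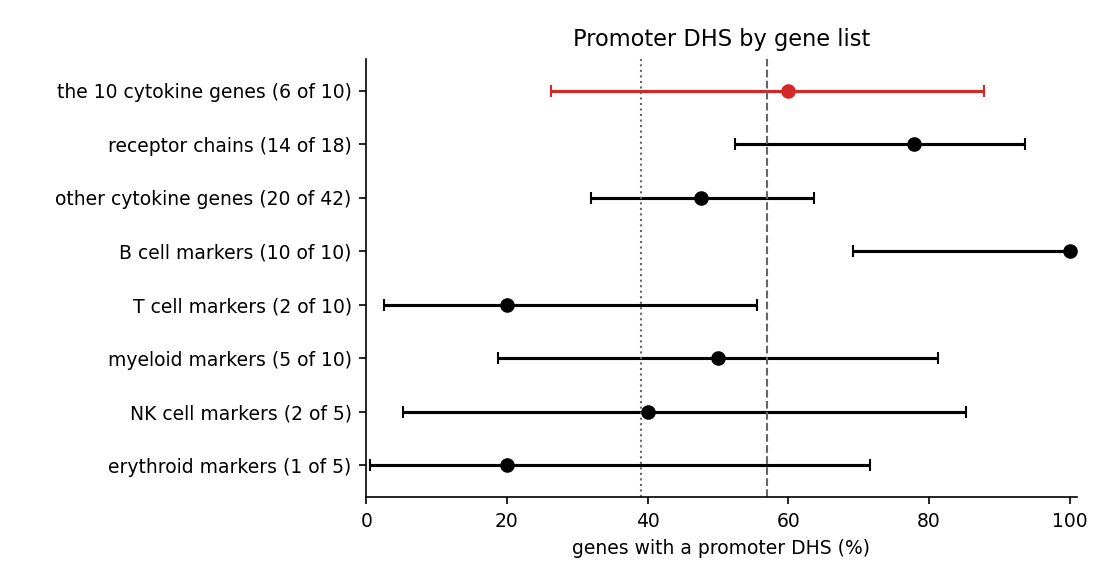
Share of genes with a promoter DHS, in percent, with exact 95% intervals, for the 10 cytokine genes (red) and the other gene lists, each with its count. The dashed line is the share of all protein-coding genes (57.0%) and the dotted line that of CpG-poor promoters (39.1%), and the interval of the cytokine genes, 26.2 to 87.8%, holds both. The intervals treat the genes as independent, which Ltb, Lta and Tnf are not.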

How the data were processed

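The authors aligned the reads to mm9 with BWA 0.6.2 and used SAMtools, per the labels of the samples. The names of the deposited peaks carry MACS, a peak caller. Version and settings of the caller and the use of the input library are not given in the sources used here for DNaseI data. The deposited score per peak was used only to rank peaks within the list. Positions count from 1. Set against NCBI build 37 (mm9), 1 peak ran 52 bp past a chromosome end and was not searched for words.

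Genes and TSSs were those of GENCODE M1 (22367 protein-coding genes of chromosomes 1 to 19, X and Y). Overlap meant at least 1 bp. Sequences were read from NCBI build 37, and those printed for Tnf, Il2 and Il6 were found whole in the RefSeq promoters (GRCm38.p6), that of Ltb was not. Functions were tested on simulated data. Alternatives changed the flank, the promoter span, the score minimum, the overlap, the merging of peaks and the choice of TSS. Python 3.11.15, pandas 2.3.3 and scipy 1.17.1 were used. Members and gene lists were chosen with earlier results of these data known. The genes named are the 10 members, the genes nearest to their DHS, and of each list the genes without a promoter DHS where fewer than 6 lack one, otherwise those with one where fewer than 6 have one, otherwise the 5 with the highest promoter score. Receptors of the members were named after their values were seen, as were Cd3d, Cd3e, Cd3g, Irf1 and Nfkbil1.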

Additional observations from a re-analysis of the deposited data

How the results depend on the processing

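Without read counts a missing DHS cannot be told from a shallow library, and 1 library gives no replicate error. No paired analysis was possible because there is 1 DNaseI library. Of 30 alternative values for 7 results, 24 stayed within 1.5 times the value reported (for the median score, within its interval). This margin is wide and does not measure stability. Within it fell the drop from 6 to 4 members with a promoter DHS and the median score of 30.9 without the cluster. With peaks at or above the median score, 5 members had a DHS in the window, 17 DHS were left and 11 of 42 other cytokine genes had a promoter DHS, since such a filter can only remove peaks. Over all protein-coding genes it left 63.9% with a DHS in the window and 50.2% with a promoter DHS. The 29 DHS became 10 with a flank of 5 kb, 66 with one of 50 kb and 18 when only peaks with the member's TSS as the nearest were counted, which follows from the narrower or wider definition. Without the cluster the median score was 30.9, under that of the whole list.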

Other observations

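Several cytokine genes outside the 10 share a locus with one of them, and were picked out after their values were seen. Since they were picked in this way, their lack of a promoter DHS is a description only, where 20 of the 42 genes in the list they come from and 57.0% of all protein-coding genes had one. Il13, next to Il4, had 2 DHS in its window, the same pair that was counted for Il4, and its TSS was 6.23 kb from the nearer. On the same chromosome Il3 and Csf2 had 1 DHS each, 2.56 and 14.7 kb from the TSS. Il22, on the chromosome of Ifng, had 0 DHS, with the nearest at 62.2 kb. Il21, in the region of Il2, had 1 DHS, at 27.4 kb. Of the genes of the IL-10 family beside Il10, Il19 and Il20 had 0 DHS, with the nearest at 39.1 and 28.8 kb, and Il24 had 7, the nearest at 3.61 kb from its TSS.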
